A study of Mus musculus with 13 samples.

Results

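Messenger RNA of the kidney renin-angiotensin system was described through 7 genes, found by their symbols among the 34745 genes of the deposited table: Ren1, Agt, Ace, Agtr1a, Agtr1b, Enpep and Mme. Of these, 6 were abundant enough to test, and Agtr1b was not. Whole kidneys of 13 mice were sequenced, 1 library per mouse, in 4 groups of 2 genotypes and 2 treatments. DsbA-L knockout mice (Gstk1 is the gene that encodes DsbA-L) were given lipopolysaccharide (LPS) in 3 cases and saline in 3, and wild-type (WT) mice were given LPS in 4 cases and saline in 3. The LPS mice received 10 mg/kg of this bacterial endotoxin by injection into the peritoneal cavity, as a model of acute kidney injury. The saline mice received 200 µL by the same route. The strain, age and sex of the mice, the way the allele was made and the time of sampling are not given in the sources used here.

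In the renin-angiotensin system, renin released by juxtaglomerular cells of the kidney cuts angiotensinogen to angiotensin I, and angiotensin-converting enzyme trims this to angiotensin II. Angiotensin II acts on type-1 receptors of vessels, mesangium and tubules, where it constricts, raises sodium reabsorption and represses renin release. Peptidases of the tubular brush border end or redirect the signal, among them aminopeptidase A (Enpep), which removes the first residue of angiotensin II, and neprilysin (Mme), which cuts angiotensin I to a vasodilator peptide.

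The libraries held 14372212 to 17668334 counts. Levels are given as CPM (counts relative to the library's total, scaled with TMM factors), and libraries are named by the end of their label. Gstk1, the targeted gene, was at 0.0642, 1.58 and 1.08 CPM in knockout LPS kidneys AKI-156, AKI-320 and AKI-381, against 41.8, 21.2, 22.8 and 33.8 CPM in WT LPS kidneys AKI-12, AKI-13, AKI-317 and AKI-319. With saline it was at 3.77, 2.51 and 2.62 CPM in knockout kidneys, against 54.1, 40.5 and 51.9 CPM in WT kidneys. The tubule markers Umod and Lrp2, the podocyte marker Nphs1 and the collecting duct marker Aqp2 were found in every group. On the first principal component of all tested genes (69.1% of the variance), AKI-320 (-18.8) and AKI-381 (-20.1) of the knockout LPS group lay between the other LPS libraries, AKI-156 at -79.4 and WT at -94.1 to -111, and the saline libraries (82.8 to 94.2). Treatment and sex-linked transcripts moved together. All 7 LPS libraries had 951 to 2996 counts of Y-linked Ddx3y and 2 to 10 counts of Xist, and all 6 saline libraries had 0 counts of Ddx3y and 11446 to 19041 counts of Xist. Any LPS against saline difference below therefore cannot be told apart from a difference between mice with and without Y-linked transcripts. Of 9 transcripts known to be higher in male mouse kidney, 9 were called higher in WT LPS against WT saline kidneys and 6 in knockout LPS against knockout saline kidneys. Among all tested genes, 28.4% and 14.7% were called higher in these comparisons, in that order. The 3 listed transcripts known to be higher in female mouse kidney were all called lower in both. Shares of all genes called lower were 28.6% and 12.9%.

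Promoter sequence was available from RefSeq (GRCm38.p6) for 6 of the 7 members, in windows of 250 bases before to 50 bases after each start site, and Agtr1a had no entry. The 250 bases before the start are shown for the renin and angiotensinogen genes, whose levels did not pass the test in any comparison, and for Ace and Enpep, whose levels fell with LPS. Each is printed 5′ to 3′ on the gene's own strand, with matches to the searched motifs in capitals. The windows are chr1:133350424-133350673 (plus strand) for Ren1, chr8:124569707-124569956 (minus strand) for Agt, chr11:105967698-105967947 (plus strand) for the first Ace start site and chr3:129332750-129332999 (minus strand) for Enpep.
Ren1: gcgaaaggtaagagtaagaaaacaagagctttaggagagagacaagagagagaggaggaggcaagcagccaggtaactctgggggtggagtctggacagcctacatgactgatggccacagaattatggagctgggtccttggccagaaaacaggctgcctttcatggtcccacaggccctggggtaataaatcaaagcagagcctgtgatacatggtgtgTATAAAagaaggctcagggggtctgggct
Agt: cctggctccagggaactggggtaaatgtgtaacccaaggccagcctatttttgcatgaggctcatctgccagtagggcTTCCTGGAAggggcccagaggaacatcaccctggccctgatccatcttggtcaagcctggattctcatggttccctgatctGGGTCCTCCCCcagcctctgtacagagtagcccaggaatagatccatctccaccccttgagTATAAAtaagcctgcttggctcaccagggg
Ace: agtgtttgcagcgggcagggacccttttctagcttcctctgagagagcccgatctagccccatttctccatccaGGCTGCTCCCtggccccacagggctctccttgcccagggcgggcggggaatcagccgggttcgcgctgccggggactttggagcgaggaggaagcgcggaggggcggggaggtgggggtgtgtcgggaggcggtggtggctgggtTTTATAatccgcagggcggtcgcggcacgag
Enpep: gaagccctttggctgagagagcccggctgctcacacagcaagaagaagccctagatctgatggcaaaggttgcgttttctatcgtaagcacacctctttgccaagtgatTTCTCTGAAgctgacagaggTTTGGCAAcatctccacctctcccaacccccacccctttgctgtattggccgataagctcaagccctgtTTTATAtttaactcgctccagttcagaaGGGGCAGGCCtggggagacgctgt
The motifs searched on both strands were a TATA box (TATAAA), NF-kB (GGG, any 5 bases, CC), STAT (TTCNNNGAA), C/EBP (TTGCNNAA), the interferon-stimulated response element (GAAA, any 2 bases, GAAA), the cyclic AMP response element (TGACGTCA), HNF1 (GTTAAT, any base, ATTAAC) and the steroid receptor palindrome (AGNACA, any 3 bases, TGTNCT). The matched letters do not show that a factor binds there. Counting the start site as base 0, the 5′ base of a TATA box on the gene's own strand lay at base -29 in Ren1, -30 in Agt and -31 in Agtr1b. In the first Ace window the match at -31 was on the opposite strand, as were those at -52 and -1 in Enpep, and the 3 Mme windows held none. Of 32851 RefSeq windows of 300 bases, 13.6% held a TATA box on either strand. The NF-kB letters stood at -91 and, overlapping, at -90 in Agt, at -176 and 5 in the first Ace window and at -24 in Enpep, as well as in the second Ace window and 2 Mme windows, and 50.8% of all windows held them. STAT letters were found at -172 in Agt, -141 in Enpep and -166 in 1 of the Mme windows, against 8.30% of all windows. Enpep alone among the members matched by RefSeq held the C/EBP letters, at -121, against 10.8% of all windows. The other 4 motifs matched no member's window, and 3.44%, 1.79%, 0.00913% and 0.0639% of all windows held them, in the order listed.

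Ren1 (ENSMUSG00000070645, chr1:133350510-133360325 on the plus strand of GRCm38, the build of all coordinates here) encodes renin. Some mouse strains carry a near-identical copy, Ren2, and as the strain is not given, reads of such a copy may be counted here. The level of Ren1 was 55.8, 181 and 99.3 CPM in knockout LPS kidneys AKI-156, AKI-320 and AKI-381, and 35.9, 41.1, 105 and 140.5 CPM in WT LPS kidneys AKI-12, AKI-13, AKI-317 and AKI-319. With saline it was 68.1, 79.9 and 69.7 CPM in knockout kidneys, and 69.9, 89.8 and 75.7 CPM in WT kidneys. The LPS libraries spread on both sides of the saline libraries. Over all 7 LPS libraries the highest level was 5.04 times the lowest, and over the 6 saline libraries 1.32 times. Group means were 112 ± 63.5 CPM in knockout LPS (SD, n = 3), 80.7 ± 50.9 CPM in WT LPS (n = 4), 72.6 ± 6.40 CPM in knockout saline (n = 3) and 78.5 ± 10.25 CPM in WT saline kidneys (n = 3), and neighbours in this order overlapped. The edgeR log2 fold change was 0.63 ± 0.47 (SE) for knockout LPS against knockout saline (adjusted p = 0.355) and 0.04 ± 0.44 for WT LPS against WT saline (adjusted p = 0.946).

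Marker levels in the same libraries are given beside Ren1 as values, with no test. The low Ren1 levels with LPS were those of WT AKI-12, WT AKI-13 and knockout AKI-156. Summed CPM of 14 leukocyte markers were 306, 152 and 160 in knockout LPS kidneys AKI-156, AKI-320 and AKI-381 and 229, 183, 91.2 and 86.5 in WT LPS kidneys AKI-12, AKI-13, AKI-317 and AKI-319. They were 112 to 122 in knockout saline and 92.3 to 108 in WT saline kidneys, with Cma1 or Cpa3, and with saline also Ly6g, at 0 counts in a whole group. Summed CPM of 14 mural and mesangial markers, the cell family renin cells belong to, were 364, 583 and 484 in knockout LPS kidneys and 281, 315, 405 and 456 in WT LPS kidneys in the same library order, against 429 to 507 in knockout saline and 531 to 590 in WT saline kidneys, with none at 0. These mural and mesangial markers moved in both directions with LPS, as counted below for Agtr1a. Summed CPM of 8 markers of renin cells were 84.0 to 140.5 in knockout LPS and 146.7 to 191.7 in WT LPS kidneys. With saline they were 120.5 to 133 in knockout and 135.7 to 147.7 in WT kidneys. The part of these 3 marker lists in the spread of Ren1 was not tested.

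Agt (ENSMUSG00000031980, chr8:124556534-124569706, minus strand) encodes angiotensinogen, the substrate of renin, which the proximal tubule makes besides the liver. It was at 68.1, 81.1 and 94.4 CPM in knockout LPS kidneys AKI-156, AKI-320 and AKI-381, and at 79.7, 78.7, 128 and 117 CPM in WT LPS kidneys AKI-12, AKI-13, AKI-317 and AKI-319. Saline kidneys had 89.2, 99.8 and 104 CPM in knockouts and 85.9, 74.9 and 76.1 CPM in WT. Agt varied least among the tested members over the LPS libraries after Enpep, its highest level being 1.88 times its lowest. The log2 fold change of -0.27 ± 0.20 for knockout LPS against knockout saline (edgeR adjusted p = 0.366) and that of 0.35 ± 0.19 for WT LPS against WT saline (adjusted p = 0.128) had opposite signs, and neither passed. Their difference was -0.62 ± 0.28 and did not pass (edgeR adjusted p = 0.211). Knockout saline kidneys (89.2 to 104 CPM) lay above WT saline kidneys (74.9 to 85.9 CPM) without overlap, with a log2 fold change of 0.31 ± 0.20 and an adjusted p of 1 in edgeR. Hepatocytes and fat cells also make Agt. Summed CPM of 8 hepatocyte markers were 60.9 to 94.2 in knockout LPS, 91.5 to 161 in WT LPS, 49.0 to 59.3 in knockout saline and 34.0 to 47.9 in WT saline kidneys, with Cps1 and Tat at 0 counts in every group. These markers did not move together. In that group order Alb averaged 3.135, 4.101, 8.464 and 8.498 CPM, and Serpina1a 40.77, 57.98, 10.67 and 10.97 CPM. Apoa1 also averaged lower with LPS, and for Apoa1 and Alb the WT groups overlapped. Apoh averaged higher with LPS in both genotypes, and Ttr higher in WT and lower in knockouts. The fat-cell marker Adipoq was at 0 to 4.16, 0.220 to 2.50, 1.37 to 16.6 and 8.01 to 39.8 CPM in the same group order. Their part in the Agt levels was not tested.

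**Figure D1:**
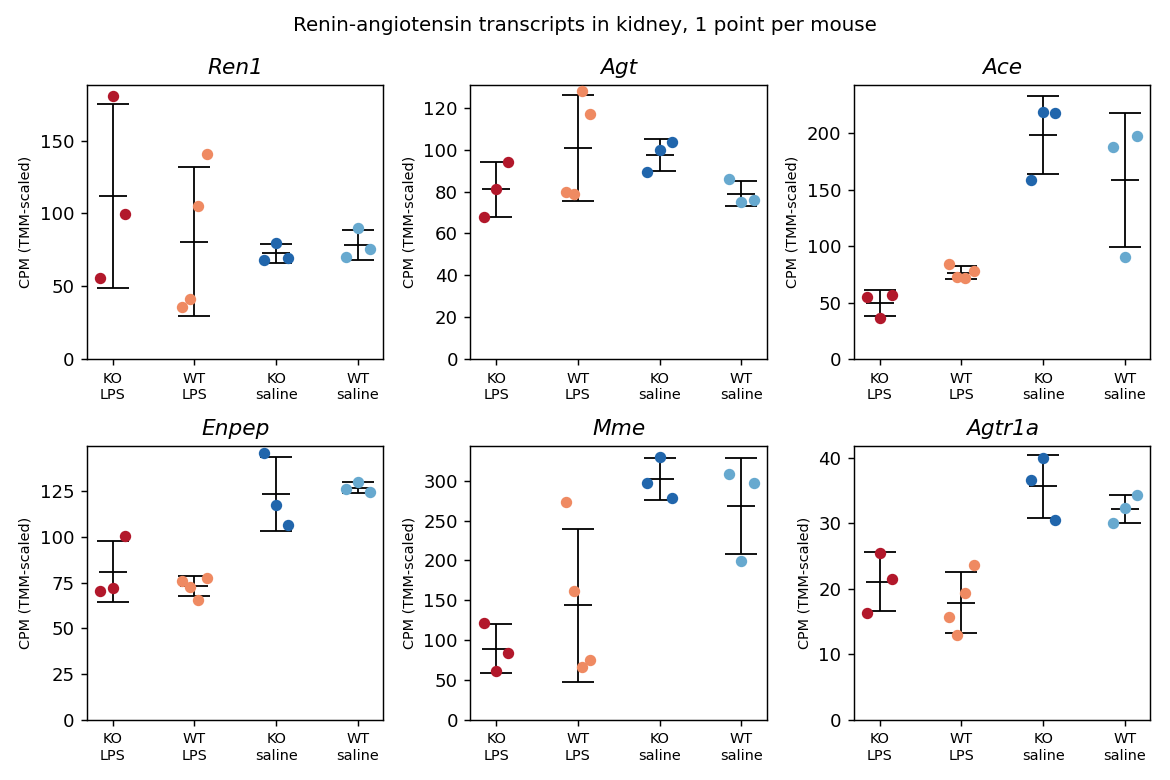
Level of 6 renin-angiotensin transcripts (y axis, CPM with TMM factors) in each of 13 kidneys by group (x axis); points are mice, horizontal marks the mean and bars 1 SD. Ace, Enpep and Agtr1a are lower in all 7 LPS kidneys than in all 6 saline kidneys, whereas Ren1 spans 35.9 to 181 CPM with LPS and 68.1 to 89.8 CPM with saline.

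Ace (ENSMUSG00000020681, chr11:105967945-105989964, plus strand) encodes angiotensin-converting enzyme, carried by endothelium and by the proximal tubule brush border. Its level was 55.0, 36.5 and 57.0 CPM in knockout LPS kidneys AKI-156, AKI-320 and AKI-381, against 159, 219 and 218 CPM in knockout saline kidneys. In WT it was 83.8, 72.5, 71.4 and 78.2 CPM with LPS (libraries AKI-12, AKI-13, AKI-317 and AKI-319), against 188, 90.5 and 198 CPM with saline, WT saline kidney N2 being the low one. Ace fell with LPS in both genotypes, with no overlap between the groups. Its level in knockout LPS kidneys was 0.249 times that in knockout saline kidneys, a log2 fold change of -2.00 ± 0.27 (edgeR adjusted p = 0.000126). WT LPS kidneys had 0.482 times the level of WT saline kidneys, a log2 fold change of -1.05 ± 0.24 (adjusted p = 0.00230). Because whole kidney was sequenced, fewer cells of a type and less RNA per cell cannot be told apart for this or any other member. Under LPS the knockout kidneys (49.5 ± 11.3 CPM, n = 3) lay below the WT kidneys (76.5 ± 5.74 CPM, n = 4) without overlap, but the log2 fold change of -0.63 ± 0.25 did not pass (adjusted p = 0.102). Leaving out WT saline kidney N2, which enters the estimate of the spread, brought that adjusted p to 0.0444 at a log2 fold change of -0.63, within a range of 0.0444 to 0.398 over the alternatives. The LPS response was more negative in knockout than in WT kidneys by -0.95 ± 0.36, which did not pass (edgeR adjusted p = 0.147, range 0.0891 to 0.299 over the alternatives). The saline groups, at 199 ± 34.5 CPM in knockout and 159 ± 59.4 CPM in WT kidneys, overlapped.

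Agtr1a (ENSMUSG00000049115, chr13:30336441-30382867, plus strand) encodes the main angiotensin II receptor of the rodent kidney. It stood at 16.3, 25.4 and 21.6 CPM in knockout LPS kidneys AKI-156, AKI-320 and AKI-381, against 36.5, 40.0 and 30.5 CPM in knockout saline kidneys. WT kidneys had 15.7, 12.9, 19.3 and 23.6 CPM with LPS (AKI-12, AKI-13, AKI-317 and AKI-319), against 30.0, 32.3 and 34.3 CPM with saline. Every LPS kidney lay below every saline kidney, and the genotypes overlapped within each treatment. The fall was -0.76 ± 0.23 on the log2 scale in knockouts (edgeR adjusted p = 0.0231) and -0.85 ± 0.21 in WT (adjusted p = 0.00351). Of the 14 mural and mesangial markers, 2 were called higher and 1 lower in knockout LPS against knockout saline kidneys, and 1 higher and 7 lower in WT LPS against WT saline kidneys, and their part in the Agtr1a values was not tested. These counts stand beside 27.6% and 57.0% of all genes called in either direction.

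Agtr1b (ENSMUSG00000054988, chr3:20314473-20367177, minus strand) encodes the second rodent angiotensin II receptor of this type, best known from adrenal and pituitary. It had 0 counts in knockout LPS kidneys, 2 in WT LPS, 4 in knockout saline and 4 in WT saline kidneys, summed over each group. The 0 counts allow a level of up to 0.0675 CPM over that group (3 counts, counting error only), so no difference between groups was detectable at this depth.

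Enpep (ENSMUSG00000028024, chr3:129269175-129332720, minus strand) encodes aminopeptidase A. Its level was 70.3, 72.3 and 100.4 CPM in knockout LPS kidneys AKI-156, AKI-320 and AKI-381, against 146, 118 and 107 CPM in knockout saline kidneys. In WT it was 76.1, 72.8, 65.3 and 77.5 CPM with LPS (AKI-12, AKI-13, AKI-317 and AKI-319), against 126, 130.2 and 125 CPM with saline. All LPS kidneys were below all saline kidneys, the closest pair being knockout LPS AKI-381 and knockout saline kidney N3. Enpep fell by 0.61 ± 0.17 on the log2 scale in knockouts (edgeR adjusted p = 0.0178) and by 0.80 ± 0.16 in WT (adjusted p = 0.000787). Knockout LPS and WT LPS kidneys averaged 81.0 ± 16.9 and 72.9 ± 5.44 CPM, and overlapped.

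Mme (ENSMUSG00000027820, chr3:63241537-63386030, plus strand) encodes neprilysin. It was at 122, 61.3 and 84.4 CPM in knockout LPS kidneys AKI-156, AKI-320 and AKI-381, against 298, 329.9 and 278 CPM in knockout saline kidneys. WT kidneys had 273, 161, 65.6 and 75.2 CPM with LPS (AKI-12, AKI-13, AKI-317 and AKI-319), against 309, 199.7 and 297 CPM with saline. WT LPS kidney AKI-12 was within the range of WT saline kidneys, whereas the other 3 were below it. Mme fell in knockouts, by 1.76 ± 0.44 on the log2 scale to 0.295 times the saline level (edgeR adjusted p = 0.00942). In WT the log2 fold change was -0.90 ± 0.40 and did not pass (adjusted p = 0.0686). Without WT LPS library AKI-12 it was -1.42 with an adjusted p of 0.00286, within 0.00286 to 0.173 over the alternatives. The knockout and WT responses differed by -0.86 ± 0.59 (adjusted p = 0.412), which did not pass.

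Brush-border transcripts fell widely beside Ace, Enpep and Mme. Of 20 proximal tubule markers, 17 were called lower and 0 higher in knockout LPS against knockout saline kidneys (median log2 fold change -1.65, with 12.9% of all genes called lower), and 17 lower and 2 higher in WT LPS against WT saline kidneys (median -1.51, with 28.6% of all genes called lower). Their summed level was 4681 to 5765 CPM in knockout LPS, 5749 to 9692 CPM in WT LPS, 15140 to 16770 CPM in knockout saline and 15870 to 17360 CPM in WT saline kidneys, with none at 0. Lrp2, the endocytic receptor megalin, averaged 245 ± 46.6 CPM in WT LPS kidneys and 2532 ± 275 CPM in WT saline kidneys (log2 fold change -3.37 ± 0.24, edgeR adjusted p = 3.10e-07), and its log2 fold change in knockouts was -2.61 ± 0.26 (adjusted p = 1.30e-05). Slc34a1, the phosphate transporter, averaged 261 ± 84.0 CPM in knockout LPS kidneys and 2254 ± 204 CPM in knockout saline kidneys (-3.11 ± 0.31, adjusted p = 1.09e-05), and its log2 fold change in WT was -1.62 ± 0.26 (adjusted p = 0.000179). The part of these marker changes in the 3 members was not tested.

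Counted over the members, Ace, Enpep and Agtr1a were called lower with LPS in both genotypes and Mme in knockouts, and no member was called higher. In knockout LPS against knockout saline kidneys, 4 of 6 tested members were called lower (Ace, Agtr1a, Enpep and Mme) and 0 higher, against 12.9% of all 15703 tested genes called lower and 14.7% higher (27.6% in either direction) at an edgeR adjusted p below 0.05. In WT LPS against WT saline kidneys, 3 of 6 were called lower (Ace, Agtr1a and Enpep) and 0 higher, against 28.6% of all genes lower and 28.4% higher (57.0% in either direction), so that 3 of 6 was below the share of all genes called in either direction and above the share called lower. The median log2 fold change of the 6 was -0.68 in knockouts and -0.83 in WT, beside 0.03 and 0.00 over all tested genes. The 2 of the pathway's start, Ren1 and Agt, were called in neither genotype, and over the alternatives the lowest adjusted p of Ren1 was 0.179 in knockouts and 0.478 in WT. In knockouts the calls of Agtr1a and Enpep depended on single libraries. Agtr1a had an adjusted p of 0.0873 without knockout LPS AKI-156, 0.0661 without knockout saline kidney N1 and 0.0883 without knockout saline kidney N2, within 0.00527 to 0.111 over its alternatives. Enpep had 0.0651 without knockout LPS AKI-156, 0.0610 without knockout LPS AKI-320 and 0.09855 without knockout saline kidney N1, within 0.00293 to 0.109. Scaled by library totals alone, both also missed the threshold, as did Enpep with only the groups compared (0.0584). That scaling moved the median log2 fold change of all genes to 0.19 in knockouts and -0.20 in WT, and the calls over all genes from 2310 higher and 2024 lower to 3146 and 1340 in knockouts, and from 4458 and 4496 to 3500 and 5175 in WT.

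**Figure D2:**
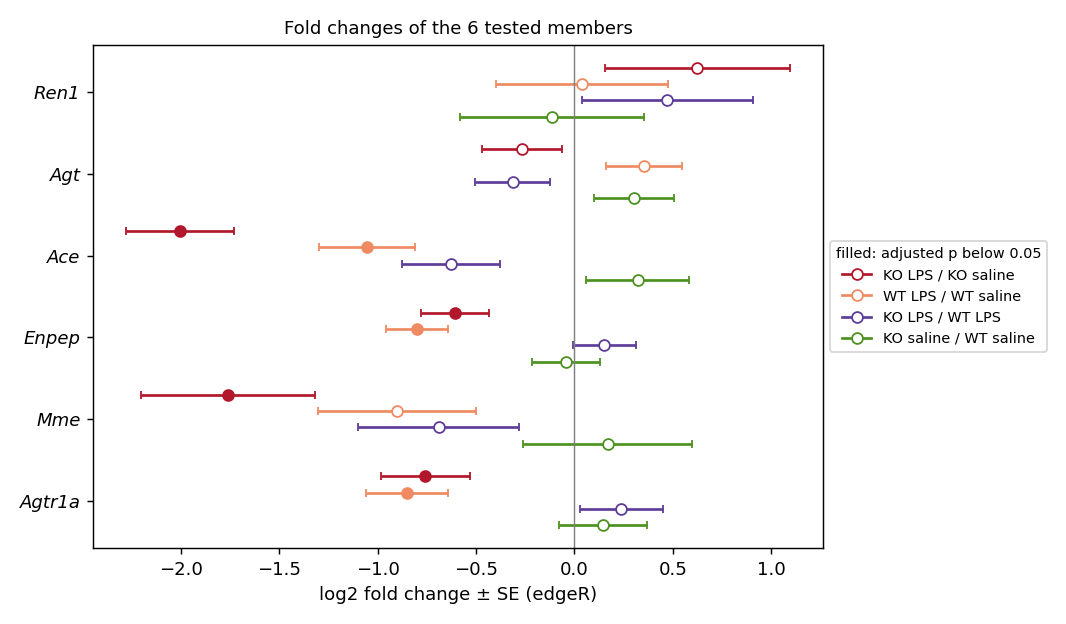
Log2 fold changes (x axis) with SE bars from edgeR for 6 renin-angiotensin genes (y axis) in 4 comparisons; filled points passed an adjusted p of 0.05. Filled points are found for Ace, Enpep, Mme and Agtr1a in the LPS against saline comparisons, and none in the genotype comparisons.

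Between genotypes under LPS, 0 of 6 members were called, against 15.0% of all genes (8.71% higher and 6.27% lower). That share over all genes rested on single libraries, being 28.3% without knockout AKI-156, 4.57% without knockout AKI-320, 3.25% without knockout AKI-381 and 9.03% without WT AKI-319. At an unadjusted p below 0.05 edgeR had 1 (Ace), against 5030 of all 15703 tested genes. DESeq2 and limma-voom called 0, against 21.6% and 13.7% of all genes. Ren1 had a log2 fold change of 0.47 ± 0.44, Mme -0.69 ± 0.41, Agt -0.31 ± 0.19, Agtr1a 0.24 ± 0.21 and Enpep 0.15 ± 0.16, with adjusted p of 0.264 to 0.542. These comparisons share WT LPS and knockout LPS kidneys with the ones above. With saline, 0 of 6 members were called in knockout against WT kidneys, against 0.0191% of all genes (0.00637% higher and 0.0127% lower). edgeR had 0 at an unadjusted p below 0.05, against 582 of all genes. DESeq2 and limma-voom called 0, against 0.159% and 0.0191% of all genes. Log2 fold changes there lay between -0.11 (Ren1) and 0.32 (Ace), with SEs of 0.17 (Enpep) to 0.47 (Ren1). For the response of knockouts minus that of WT, 0 of 6 were called, against 2.11% of all genes (1.36% higher and 0.751% lower). This share was 15.8% without knockout AKI-156, 2.91% without WT AKI-13 and 0.0624% to 1.30% on leaving out any of the other 11 libraries. edgeR had 2 at an unadjusted p below 0.05 (Ace and Agt), against 3487 of all 15703 genes. DESeq2 and limma-voom called 0, against 9% and 0.783% of all genes. A p above the threshold does not show that the genotypes respond alike, and the estimates for Ren1 and Mme have SEs of 0.64 and 0.59.

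Compared per length of transcript, with the authors' FPKM, Ren1 and Agt were the most abundant members in all groups. In knockout LPS kidneys Ren1 averaged 71.9 ± 44.0 FPKM and Agt 49.0 ± 11.6 FPKM, which overlapped, followed by Enpep (15.3 ± 4.11), Agtr1a (9.78 ± 2.81), Ace (8.22 ± 1.82) and Mme (6.79 ± 1.75). WT LPS kidneys had Agt at 48.3 ± 15.6 FPKM and Ren1 at 40.7 ± 26.2 FPKM, then Enpep (10.7 ± 0.720), Ace (10.0 ± 0.377), Mme (8.46 ± 4.87) and Agtr1a (6.50 ± 1.84). The order among the peptidases was another with saline. In both saline groups the mean of Ace followed those of Ren1 and Agt, at 29.5 ± 4.99 FPKM in knockout and 24.0 ± 8.84 FPKM in WT kidneys, ahead of Mme (20.8 ± 1.63 and 18.9 ± 4.05) and Enpep (20.5 ± 3.43 and 21.5 ± 0.661), and the values of these 3 overlapped in WT, as those of Ace and Enpep and of Mme and Enpep did in knockouts. Agtr1b was at 0.0505 FPKM or less in all libraries.

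The rest of the pathway was read from 16 further genes of the table, of which 10 were abundant enough to test. Calls among those 10 went in both directions. In knockout LPS against knockout saline kidneys 1 was called higher and 2 lower, and in WT LPS against WT saline kidneys 3 higher and 1 lower, with a median of -0.26 and -0.17 (log2). Set against 27.6% and 57.0% of all genes called in these comparisons, the 3 of 10 in knockouts are near the background and the 4 of 10 in WT below it. Among enzymes that turn angiotensins into other peptides, neurolysin (Nln), which cuts angiotensin I as neprilysin does, was called higher in both. It was at 84.4, 43.7 and 54.5 CPM in knockout LPS kidneys AKI-156, AKI-320 and AKI-381, against 29.4, 29.6 and 33.0 CPM in knockout saline kidneys (log2 fold change 0.99 ± 0.23, edgeR adjusted p = 0.00644). In WT it was at 77.8, 99.9, 70.5 and 63.7 CPM with LPS, against 26.4, 34.4 and 31.5 CPM with saline (1.34 ± 0.22, adjusted p = 0.000213). All 7 LPS kidneys thus stood above all 6 saline kidneys for Nln, the opposite of Ace. Prolyl endopeptidase (Prep) was called higher in WT, by 0.51 ± 0.16 (42.5 ± 2.88 CPM with LPS and 29.8 ± 4.91 CPM with saline, adjusted p = 0.0166). Without WT saline kidney N3 its adjusted p was 0.0962, within 0.00698 to 0.108 over its alternatives.

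Tmem27, or collectrin, which carries amino acid transporters to the brush border, was called in neither LPS against saline comparison. It was at 900.5, 371 and 354 CPM in knockout LPS kidneys AKI-156, AKI-320 and AKI-381, and at 2119, 1341, 590.1 and 871 CPM in WT LPS kidneys AKI-12, AKI-13, AKI-317 and AKI-319, against 696 to 833 CPM in saline kidneys. The LPS libraries lay on both sides of the saline libraries. Lnpep, an aminopeptidase that binds angiotensin IV, also varied with LPS, its highest level being 6.06 times its lowest over the 7 LPS libraries and 1.25 times over the 6 saline libraries. Anpep, aminopeptidase N of the brush border, which trims angiotensin III, was called lower in both genotypes. It averaged 36.6 ± 13.8 CPM in knockout LPS and 110 ± 13.2 CPM in knockout saline kidneys (-1.58 ± 0.29, adjusted p = 0.00109), and 35.8 ± 11.1 CPM in WT LPS and 103 ± 11.9 CPM in WT saline kidneys (-1.52 ± 0.26, adjusted p = 0.000261).

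**Figure D3:**
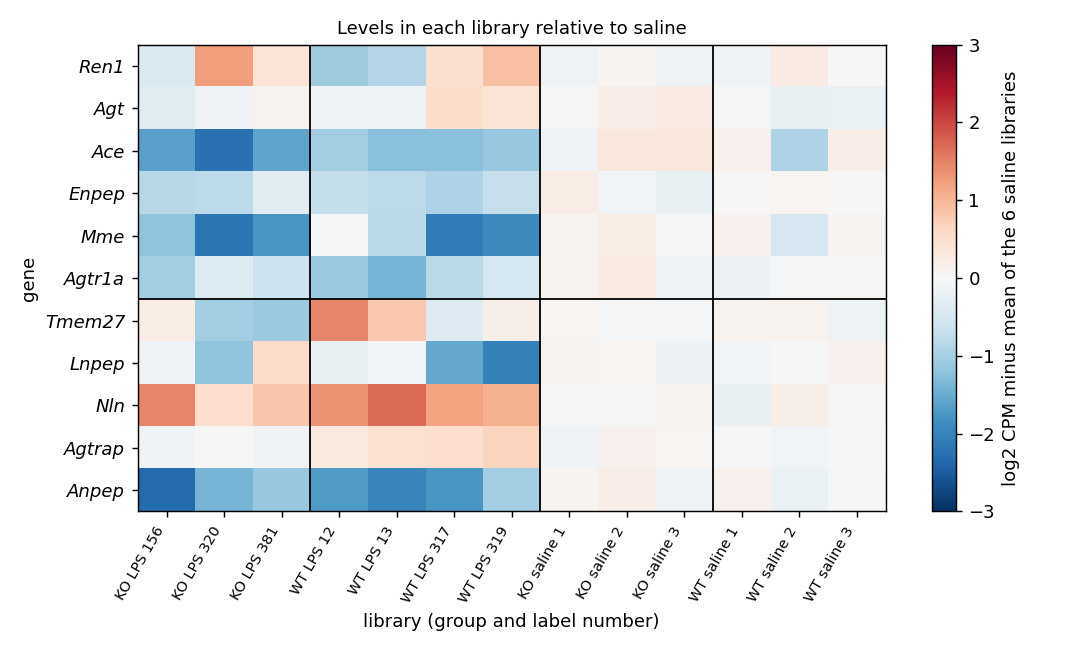
Level of 11 genes (rows; the 6 tested members above the line) in 13 libraries (columns, by group), coloured by log2 CPM minus the mean of the 6 saline libraries. Ace, Enpep, Agtr1a and Anpep are blue in all 7 LPS libraries and Nln red in all 7, whereas Ren1, Mme, Tmem27 and Lnpep differ among LPS libraries.

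For receptor partners, Agtrap, whose product binds the angiotensin II receptor and drives its internalisation, differed between genotypes under LPS. It was at 77.1, 84.8 and 79.0 CPM in knockout LPS kidneys AKI-156, AKI-320 and AKI-381, against 104, 116, 120.4 and 135 CPM in WT LPS kidneys AKI-12, AKI-13, AKI-317 and AKI-319, without overlap. The log2 fold change was -0.56 ± 0.13 (edgeR adjusted p = 0.0153), and Agtrap was the 1 of 10 called in that comparison, in which 15.0% of all genes were called. It missed the threshold without knockout LPS library AKI-381 (adjusted p = 0.0706), with library totals (0.325) and when only these groups were fitted (0.131), and the range over its alternatives was 7.21e-05 to 0.325. Agtrap was called higher in WT LPS against WT saline kidneys (119 ± 12.9 and 83.1 ± 2.49 CPM, 0.51 ± 0.13, adjusted p = 0.00486) and not in knockouts (80.3 ± 4.01 and 86.4 ± 7.51 CPM, -0.11 ± 0.14, adjusted p = 0.627). The difference between these responses was -0.62 ± 0.19 and did not pass (adjusted p = 0.0944). Atp6ap2, the (pro)renin receptor and a proton pump subunit, was called lower in knockouts (94.1 ± 12.9 CPM with LPS and 133 ± 2.76 CPM with saline, -0.50 ± 0.17, adjusted p = 0.0445). That call was kept in 9 of 22 alternatives, and leaving out any knockout saline library, knockout LPS AKI-320 or AKI-381, WT AKI-13 or any WT saline library took it over the threshold (adjusted p up to 0.135). The angiotensin receptor Agtr2 had 0 counts in knockout LPS and WT LPS kidneys, and 6 and 14 counts in knockout saline and WT saline kidneys. Mas1, a receptor for the vasodilator peptide, had 3, 1, 10 and 16 counts in knockout LPS, WT LPS, knockout saline and WT saline kidneys, and neither was tested. Mast-cell and neutrophil proteases that can make angiotensin II outside this route were near 0, with Cma1, Cpa3 and Ctsg at 0 to 8 counts per group. With saline 0 of the 10 were called between genotypes, against 0.0191% of all genes. There were 0 at an unadjusted p below 0.05, and 0 by DESeq2 and by limma-voom. For the difference of responses 0 were called by edgeR (1 at an unadjusted p below 0.05), 1 by DESeq2 (Agtrap) and 0 by limma-voom. Over all genes edgeR called 2.11% there, DESeq2 9% and limma-voom 0.783%. By edgeR, 3487 of all 15703 genes had an unadjusted p below 0.05.

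**Figure D4:**
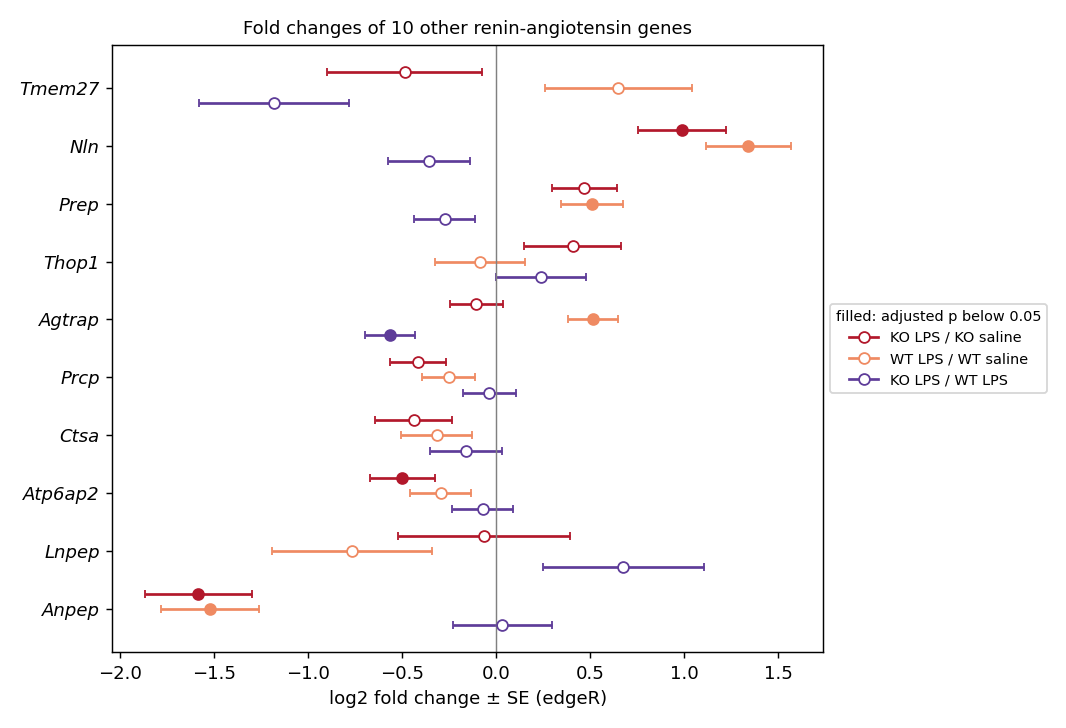
Log2 fold changes (x axis) with SE bars from edgeR for 10 other renin-angiotensin genes (y axis) in 3 comparisons; filled points passed an adjusted p of 0.05. Nln is filled on the right and Anpep on the left in both LPS against saline comparisons, and Agtrap is the filled point for knockout LPS against WT LPS.

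Genes that govern renin were given by a list of 20, of which 19 were tested. With LPS, 1 was called higher and 4 lower in knockouts (median -0.28), and 3 higher and 11 lower in WT (median -0.67). The 5 calls of 19 in knockouts are near the 27.6% of all genes called there, and the 14 of 19 in WT stand beside 57.0%. Akap12, a scaffold of the cyclic AMP kinase, was called higher in both, at 212 ± 107 CPM in knockout LPS and 26.0 ± 4.44 CPM in knockout saline kidneys (3.03 ± 0.31, edgeR adjusted p = 1.49e-05), and at 492 ± 77.5 CPM in WT LPS and 35.5 ± 4.31 CPM in WT saline kidneys (3.79 ± 0.31, adjusted p = 8.39e-07). Casr, the calcium-sensing receptor, which restrains renin release, was called lower in both, by -2.34 ± 0.42 in knockouts (adjusted p = 0.000990) and -3.17 ± 0.39 in WT (adjusted p = 1.87e-05). Vdr, the vitamin D receptor, which represses Ren1, was also called lower, at 148 ± 52.4 CPM in knockout LPS and 335 ± 40.1 CPM in knockout saline kidneys (-1.18 ± 0.22, adjusted p = 0.00155), and by -1.37 ± 0.21 in WT (adjusted p = 9.08e-05). Adrb1, the beta-1 adrenergic receptor, was at a low level, 0.589 ± 0.385 CPM in knockout LPS kidneys. It too was called lower, by -2.01 ± 0.58 in knockouts (adjusted p = 0.0203) and -2.49 ± 0.56 in WT (adjusted p = 0.00180). Adcy6, an adenylyl cyclase, was called lower by -0.73 ± 0.26 in knockouts (adjusted p = 0.0477) and -1.42 ± 0.24 in WT (adjusted p = 0.000222). Ptgs2, the prostaglandin synthase of the macula densa that stimulates renin, was called higher in WT LPS (57.4 ± 32.3 CPM) against WT saline kidneys (1.24 ± 1.02 CPM, 5.53 ± 0.75, adjusted p = 3.93e-05). It was lower in knockout LPS (7.73 ± 4.77 CPM) than in WT LPS kidneys (-2.89 ± 0.63, adjusted p = 0.0107). That difference missed the threshold without knockout AKI-320 (adjusted p = 0.0548) or AKI-381 (0.0662), within 0.000948 to 0.0662 over its alternatives. In knockout LPS against WT LPS kidneys 2 of the 19 were called higher (Npr1 and Gja5) and 2 lower (Akap12 and Ptgs2). Beside these stand 8.71% of all genes called higher and 6.27% lower (15.0% in either direction). The groups overlapped for Npr1 and Gja5 and did not for Akap12 and Ptgs2. Npr1, the atrial natriuretic peptide receptor, which restrains renin, averaged 27.5 ± 13.4 CPM in knockout LPS and 12.4 ± 3.70 CPM in WT LPS kidneys (1.15 ± 0.30, adjusted p = 0.0244), and it missed the threshold without knockout AKI-320 (0.1355) or AKI-381 (0.0913) or WT AKI-12 (0.0540) or AKI-13 (0.0505). Akap12 missed it without knockout AKI-320 (0.0520) or AKI-381 (0.0767), within 0.000266 to 0.0818 over its alternatives. The Gja5 call was kept in 9 of 22 alternatives, with adjusted p up to 0.288 on leaving out knockout AKI-320. Ren1 itself was called in none of these comparisons.

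Among 8 markers of renin cells, Kcnj8, a potassium channel subunit of mural cells, was called higher in both genotypes. It averaged 16.8 ± 12.4 CPM in knockout LPS and 3.91 ± 0.703 CPM in knockout saline kidneys (2.10 ± 0.39, edgeR adjusted p = 0.00125), and 56.3 ± 7.65 CPM in WT LPS and 3.41 ± 0.382 CPM in WT saline kidneys (4.04 ± 0.40, adjusted p = 3.22e-06). Akr1b7, an aldose reductase of renin cells, was called higher in WT (12.3 ± 7.14 CPM with LPS and 2.37 ± 0.700 CPM with saline, 2.37 ± 0.50, adjusted p = 0.00122). Over the list 1 was called higher and 0 lower in knockouts (median -0.13), 3 higher and 2 lower in WT (median 0.16), and 1 higher and 2 lower in knockout LPS against WT LPS kidneys. Of all genes, 27.6%, 57.0% and 15.0% were called in these comparisons. The 2 called lower in WT were Gja5 (-1.67 ± 0.45, adjusted p = 0.00583) and Rgs5 (-0.86 ± 0.20, adjusted p = 0.00273). Signalling below the receptor was given by 17 genes, of which 2 were called higher and 2 lower in knockouts (median 0.23) and 4 higher and 6 lower in WT (median -0.04). Nox4, a renal NADPH oxidase, averaged 80.2 ± 28.5 CPM in knockout LPS and 493 ± 28.8 CPM in knockout saline kidneys (-2.62 ± 0.31, adjusted p = 4.49e-05), and 110 ± 41.1 CPM in WT LPS and 568 ± 90.1 CPM in WT saline kidneys (-2.37 ± 0.28, adjusted p = 1.21e-05). Itpr1, the calcium channel opened by inositol trisphosphate, was lower in WT LPS than in WT saline kidneys (-2.00 ± 0.24, adjusted p = 1.47e-05) and higher in knockout LPS than in WT LPS kidneys (1.01 ± 0.24, adjusted p = 0.0147). Without knockout AKI-381 this difference between genotypes had an adjusted p of 0.0925, within 0.00160 to 0.0925 over its alternatives.

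A list of brush-border peptidases other than the members, 9 genes with Anpep and the cytosolic Cndp2 among them, had 1 called higher and 5 lower in knockouts (median -1.07), 1 higher and 6 lower in WT (median -1.0), and 0 higher and 3 lower in knockout LPS against WT LPS kidneys (median -0.59). Shares of all genes called there were 27.6%, 57.0% and 15.0%. Xpnpep2, an aminopeptidase that cuts bradykinin, fell by 2.92 ± 0.29 on the log2 scale in knockouts (1.62 ± 0.285 CPM with LPS and 12.4 ± 1.51 CPM with saline, edgeR adjusted p = 1.13e-05) and by 2.14 ± 0.25 in WT (adjusted p = 1.30e-05). Cndp2, a cytosolic dipeptidase, went the other way, with 389 ± 114 CPM in knockout LPS and 181 ± 13.2 CPM in knockout saline kidneys (1.10 ± 0.24, adjusted p = 0.00412) and 812 ± 233 CPM in WT LPS and 169 ± 7.83 CPM in WT saline kidneys (2.27 ± 0.24, adjusted p = 5.72e-06). As Cndp2 was the 1 called higher, no brush-border enzyme of the list was called higher with LPS in either genotype. The kallikrein-kinin system, whose bradykinin is also cut by converting enzyme and neprilysin, had 8 tested genes, with 1 called higher and 4 lower in knockouts (median -0.91) and 0 higher and 3 lower in WT (median -0.32). Beside these stand 27.6% of all genes called in knockouts and 57.0% in WT. Klkb1, plasma kallikrein, had 0 and 2 counts in knockout LPS and WT LPS kidneys, against 212 and 202 counts in knockout saline and WT saline kidneys. Klk1, tissue kallikrein, fell in knockouts (887 ± 119 CPM with LPS and 1852 ± 178 CPM with saline, -1.06 ± 0.25, adjusted p = 0.00642) and not in WT (1449 ± 511 CPM with LPS and 1501 ± 89.8 CPM with saline, -0.05 ± 0.23, adjusted p = 0.870), and this difference was not called as an interaction. Cpn1, which inactivates kinins, fell in both, by 1.85 ± 0.26 in knockouts (adjusted p = 0.000138) and 2.48 ± 0.24 in WT (adjusted p = 2.28e-06).

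The genes whose level followed each member most closely over the 13 libraries were found by the root-mean-square difference of mean-centred log2 CPM, among 13037 genes with a symbol. Agtr1a was followed most closely by Top3b (0.0897), Ppt1 (0.141) and Stxbp6 (0.145), and Enpep by Arhgap32 (0.109), Herc1 (0.118) and Ppp2r5e (0.121). Agt had Dcp1b (0.122), Sidt2 (0.127) and Slc35d1 (0.129), and Mme had Aldh6a1 (0.193), Lrrc19 (0.212) and Mut (0.236), of which Aldh6a1 and Mut encode mitochondrial enzymes. The closest to Ren1 were Prickle3 (0.252), Nradd (0.284) and Scamp3 (0.307), and to Ace they were Bdh1 (0.282), Ccbl2 (0.289) and Cyp51 (0.289). No member was among these for another member.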

How the data were processed

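Total RNA of whole kidney from 13 mice was sequenced, with 1 library for each label number. The authors deposited 1 table with raw counts and FPKM per library. The counts, named so per the file headers, are whole numbers and were deposited unnormalised. The deposited FPKM divide them by the length of a gene model and by the library's total, and the lengths they imply differ between libraries by at most 0.0105% for the genes described. Per the submitters' processing notes, the tools included HISAT2, edgeR, TopHat and TopHat2 2.0.9, with no role given, and the build was hg38, which is human. Of the table's identifiers, 34267 are in the mouse annotation GENCODE M21 (GRCm38), all on the same chromosome and 80.8% with the same start and end, so coordinates were read as GRCm38. The counting tool and its strand setting are not given in the sources used here. Reads of genes that overlap a member, among them Gm42628 (Enpep), Gm48161 (Agtr1a) and Gm11651 (Ace, 0 counts), may not be separable.

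Counts were fitted as deposited with edgeR 4.0.16 in R 4.3.3: 15703 genes passed filterByExpr (minimum count 10), TMM factors scaled the libraries, and a quasi-likelihood model had 1 mean for each of the 4 groups over all 13 libraries (9 residual degrees of freedom). Benjamini-Hochberg adjustment ran over all 15703 genes, and calls required an adjusted p below 0.05. The SE is the log2 fold change divided by the square root of F. FPKM were used for levels between genes and not tested. The members, gene lists, comparisons and tests were chosen with earlier results of these data known. Named genes are the members, Gstk1, the called genes of the wider pathway, up to 3 called genes with the smallest p of each other list and comparison, of which a part is printed, and the 3 genes closest to each member. Named outside this rule, after their values were seen, were Tmem27, Lnpep, Agtr2, Mas1, Cma1, Cpa3 and Ctsg, the tissue and sex-linked markers, Klk1 in WT and Gja5. Also outside it were Adrb1, Adcy6, Rgs5, Alb and Apoa1. 1 gene of the wider pathway is not reported here. The fit was tested on simulated counts. Libraries within a group differed by 12.5 to 122 times counting noise (chi-square per degree of freedom), so each counted as 1 sample. Alternatives were RLE factors, library totals, mitochondrially encoded genes left out, no filter, at least 1 CPM in 3 libraries, a minimum change of 1 on the log2 scale, DESeq2 1.42.0, limma-voom (limma 3.58.1), only the groups compared, each library left out and a replicate block.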

Additional observations from a re-analysis of the deposited data

Results flagged for a closer look

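Among the WT LPS libraries, 1 value each of 2 genes near the pathway stood far from the other 3 of its group. Chance alone flags about 1 in 20 groups, and 71 groups of 4 were examined. Nox4, the renal NADPH oxidase, was at 171.6 CPM in WT LPS library AKI-12, against 89.2, 87.4 and 91.9 CPM in libraries AKI-13, AKI-317 and AKI-319. Tbx18, a transcription factor of mural precursors, was at 0.7156 CPM in WT LPS library AKI-317, which is 11 counts, against 1 to 2 counts in the other 3 libraries.

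The response of Ramp3, a receptor-modifying protein of renin cells and endothelium, differed between genotypes by a test of the difference itself. Ramp3 was at 12.3, 11.96 and 9.39 CPM in knockout LPS kidneys AKI-156, AKI-320 and AKI-381, and at 22.1, 25.2, 48.9 and 48.9 CPM in WT LPS kidneys AKI-12, AKI-13, AKI-317 and AKI-319. Knockout saline kidneys had 12.4 ± 0.488 CPM (n = 3) and WT saline kidneys 11.5 ± 1.73 CPM (n = 3). The log2 difference of the responses was -1.8027 (edgeR adjusted p = 0.0420). It was called in 9 of 21 alternatives, which gave -1.98 to -1.47 with adjusted p of 0.00128 to 0.118. It missed the threshold on leaving out 1 library for knockout LPS AKI-320 or AKI-381, WT LPS AKI-317 or AKI-319 and each of the 6 saline libraries.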

How the results depend on the processing

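No result changed sign past the threshold under any alternative. The 4 members called in knockout LPS against knockout saline kidneys became 2 (Ace and Mme) with library totals and with a minimum change of 1 (log2), and 2 to 4 on leaving out 1 library (2 without knockout LPS AKI-156 or knockout saline kidney N1). The 3 called in WT became 1 (Ace) at that minimum change. Between genotypes under LPS the count was 0 to 1 on leaving out 1 library (1, Ace, without WT saline kidney N2). Of the 10 other pathway genes, 3 called in knockouts became 1 (Anpep) and 4 in WT became 2 (Anpep and Nln) at that minimum change. Their 1 call between genotypes under LPS became 0 with library totals, at that minimum change and with only the groups compared, 2 (Agtrap and Tmem27) with no filter and with DESeq2, and 0 to 3 on leaving out 1 library (3 without knockout LPS AKI-156, 2 without WT LPS AKI-317 and 0 without knockout LPS AKI-381). For the difference of responses, 0 became 1 with DESeq2 (Agtrap) and 0 to 1 on leaving out 1 library (Tmem27, without knockout LPS AKI-156). The causes were not tested. Signs of uncalled values did change: Ren1 ranged from -0.37 to 0.28 in WT LPS against WT saline kidneys and from -0.04 to 0.88 in knockout LPS against WT LPS kidneys. Library totals shifted the median of all genes to 0.34 for knockout LPS against WT LPS kidneys and to 0.37 for the difference of responses, with 3323 higher and 477 lower against 1367 and 985 as reported, and 801 and 94 against 214 and 118. With only the groups compared, 48 and 54 genes were called between genotypes under LPS. DESeq2 called 1757 and 1638 there, 783 and 602 for the difference of responses and 11 and 14 with saline, against 1 and 2 as reported. limma-voom called 65 and 58 for the difference of responses. Saline labels share the numbers 1 to 3. A replicate block on them called 0 members and 0 other pathway genes, as without it. Same-numbered knockout and WT saline libraries deviated with correlations of 0.018, -0.05 and -0.03. These values show no pairing of mice by number, and so few libraries cannot exclude one. At this depth Agtr1b, Agtr2 and Mas1 could not be tested.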

Other observations

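Markers of the kidney's other cell types, counted by edgeR calls, moved in both directions. The counts below stand beside 27.6% of all genes called in knockout LPS against knockout saline kidneys. The share was 57.0% in WT LPS against WT saline kidneys and 15.0% between genotypes under LPS. Counts near these shares, such as that of the endothelial markers in knockouts, do not set a cell type apart from all genes. Of 8 fibroblast markers, 5 were called higher and 0 lower in knockout LPS against knockout saline kidneys, 1 higher and 2 lower in WT LPS against WT saline kidneys, and 4 higher and 0 lower in knockout LPS against WT LPS kidneys. Col1a1, a fibrillar collagen chain, averaged 46.3 ± 29.5 CPM in knockout LPS and 6.60 ± 1.25 CPM in knockout saline kidneys (log2 fold change 2.81 ± 0.47, adjusted p = 0.000639). Of 14 endothelial markers, 1 was called higher and 3 lower in knockouts, 4 higher and 8 lower in WT, and 6 higher and 3 lower between genotypes under LPS. Of 8 markers of the macula densa and thick ascending limb, 0 were called higher and 3 lower in knockouts and 2 higher and 5 lower in WT. Slc12a1, the salt cotransporter through which the macula densa senses chloride, averaged 121 ± 76.2 CPM in knockout LPS and 2300 ± 114 CPM in knockout saline kidneys (-4.25 ± 0.70, adjusted p = 0.000573). Of 9 podocyte markers, 0 were called higher and 1 lower in knockouts, and 0 higher and 6 lower in WT. Of 9 tested leukocyte markers, 5 were called higher and 1 lower in knockouts, 4 higher and 2 lower in WT, and 4 higher and 0 lower between genotypes under LPS. The 5 tested hepatocyte markers had 2 higher and 3 lower in knockouts and 3 higher and 0 lower in WT. The 8 tested fat-cell markers had 0 higher and 1 lower in knockouts and 0 higher and 6 lower in WT.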
